A study of Mus musculus with 8 samples.

Results

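The 7 genes described here, Myl9, Bex1, Fstl1, Hs6st2, Hacd4, P4ha2 and Marcksl1, read high in mouse intestinal epithelial cells with stabilised β-catenin and lower in cells that also carried the IKKα AA allele. They were picked from these same arrays for a large rise with stabilised β-catenin or a large fall from it in the double mutants, so those differences chose the genes and are given as a description with no test. The 7 genes stood among 12393 measured genes, and 13 of 22690 probe sets (groups of short probes read as 1 value) carried their symbols. Myl9, Bex1, Hacd4 and P4ha2 had 1 probe set each, Fstl1 had 2, Hs6st2 had 3 and Marcksl1 had 4. All 7 were found and none was removed by a filter.

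The study measured RNA of intestinal epithelial cells on 8 Affymetrix arrays, 2 in each of 4 groups, in a model of early tumour growth driven by Wnt signalling. The double mutants (bCATca_IKKa-AA) carried inducible, constitutively active β-catenin together with the homozygous IKKα AA allele, bCATca mice carried the active β-catenin alone, IKKa-AA mice carried the homozygous AA allele alone, and WT mice carried neither. Every group shared the strain background, a C57BL/6 x 129Sv x FVB mix, and every group, WT included, received tamoxifen by gavage on 5 days, with cells prepared 15 days after the first dose. Stabilisation was restricted to the intestinal epithelium per the study's design text, the labels do not name the driver of the recombinase or the ages of the mice, and they do not say that the 2 samples of a group came from separate animals. However, WT replicates 1 and 2 differed from each other in Xist and in Y-linked genes and so came from animals of different sex; in the other groups the spread between samples, on which the p-values rest, may be technical. Values are log2 intensities, differences are between means of log2 intensity in 2 arrays, and SE is the standard error of the model.

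β-catenin is the effector of Wnt signalling in the crypt: when it escapes degradation it enters the nucleus, binds TCF/LEF factors and drives crypt programmes. IKKα, an NF-κB kinase, acts mainly through its alternative branch, and in the AA allele the serines needed for its activation are replaced by alanines. The 7 genes have unrelated products. Myl9 encodes a regulatory light chain of myosin II and is abundant in smooth muscle, and Marcksl1 encodes a relative of the protein kinase C substrate MARCKS that binds membranes and actin. Fstl1 encodes a secreted glycoprotein of the SPARC family, P4ha2 a catalytic subunit of collagen prolyl 4-hydroxylase, and Hs6st2 an enzyme that adds 6-O-sulphate to heparan sulphate. Hacd4 encodes a dehydratase of very-long-chain fatty acid elongation, and Bex1 a small adaptor protein best known from brain.

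The genes lie on 5 chromosomes in the GRCm38.p6 annotation of RefSeq. Myl9 is at chr2:156775408-156781657, Hacd4 at chr4:88407687-88438936, Marcksl1 at chr4:129513581-129515981, P4ha2 at chr11:54100924-54131668 and Fstl1 at chr16:37777055-37836516. Hs6st2 at chrX:51386637-51681705 and Bex1 at chrX:136213972-136215513 are both on the X chromosome. RefSeq promoter windows of 300 bases (250 before the start and 50 after it) were available for all 7, with 2 windows for Hs6st2. Since the genes read together across the arrays, 6 motifs were searched on both strands of these 8 windows. CTTTGAT and CTTTGTT, the core letters of TCF/LEF sites, matched 0 of 8 windows, against 3.73% and 5.85% of 32851 windows of the same length. The AP-1 letters TGANTCA also matched 0 of 8, against 7.81% of all windows. The E-box CANNTG matched 3 of 8 (72.3% of all), in Myl9, Bex1 and Marcksl1. The κB consensus and the CArG box, which is the binding motif of serum response factor, each matched 1 window, that of Myl9, and were held by 8.46% and 1.63% of all windows. These are matches of letters, not sites, and the lack of a match says only that the letters are not in this window. None of the matches overlapped another. The GC content of the 8 windows lay between 53.7% and 71.7% with a median of 65.2%, against a median of 52.7% over all windows.

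4 of the windows are printed 5′ to 3′ on the gene's strand from RefSeq, build GRCm38.p6: Myl9 for its CArG box, Bex1 and Marcksl1 for their E-boxes, and P4ha2 as the gene with the smallest rise and no match to any of the 6 motifs. Capitals mark the CArG box in Myl9, which starts at position -161 from the start site, and the E-boxes in Bex1 (at -10 and -3) and Marcksl1 (at -107). The κB match of Myl9 starts at -195 and its E-box at 41, and both are in lower case. The windows are chr2:156775214-156775513 on the plus strand for Myl9, chrX:136215464-136215763 on the minus strand for Bex1, chr4:129513331-129513630 on the plus strand for Marcksl1 and chr11:54100674-54100973 on the plus strand for P4ha2.
Myl9: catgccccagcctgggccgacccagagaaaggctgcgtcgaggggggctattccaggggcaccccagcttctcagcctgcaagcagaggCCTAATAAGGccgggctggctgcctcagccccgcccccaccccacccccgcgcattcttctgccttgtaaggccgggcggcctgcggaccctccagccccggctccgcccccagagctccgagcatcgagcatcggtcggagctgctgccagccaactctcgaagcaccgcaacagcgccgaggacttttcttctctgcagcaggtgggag
Bex1: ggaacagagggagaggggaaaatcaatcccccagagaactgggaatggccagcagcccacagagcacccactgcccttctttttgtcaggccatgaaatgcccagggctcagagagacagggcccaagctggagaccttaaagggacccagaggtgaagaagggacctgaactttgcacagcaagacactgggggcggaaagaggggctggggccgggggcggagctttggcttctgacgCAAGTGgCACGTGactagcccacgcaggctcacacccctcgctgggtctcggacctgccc
Marcksl1: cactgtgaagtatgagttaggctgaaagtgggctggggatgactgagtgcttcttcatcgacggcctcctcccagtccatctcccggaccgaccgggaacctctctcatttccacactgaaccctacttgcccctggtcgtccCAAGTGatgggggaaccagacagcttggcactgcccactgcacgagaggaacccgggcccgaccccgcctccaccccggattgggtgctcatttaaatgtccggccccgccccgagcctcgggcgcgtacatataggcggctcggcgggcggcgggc
P4ha2: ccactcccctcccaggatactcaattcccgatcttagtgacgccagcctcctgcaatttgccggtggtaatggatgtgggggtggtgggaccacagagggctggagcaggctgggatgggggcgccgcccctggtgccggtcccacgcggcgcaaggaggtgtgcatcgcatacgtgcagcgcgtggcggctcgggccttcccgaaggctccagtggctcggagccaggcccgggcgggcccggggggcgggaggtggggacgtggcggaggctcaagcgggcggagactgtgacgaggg

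A background level was set on each array from 84 probe sets of 54 genes of other organs, such as pituitary, eye, testis and heart, and a reading counted as above background when it exceeded the 90th percentile of these probe sets on that array. That percentile was 5.49 and 5.30 in double mutants, 5.10 and 5.47 in bCATca cells, 5.28 and 5.43 in IKKa-AA and 5.60 and 5.61 in WT. Of the 14 readings of the 7 genes in a group, 5 exceeded it in double mutants, 14 in bCATca, 2 in IKKa-AA and 2 in WT. In IKKa-AA and WT the readings above background were those of Marcksl1 alone, and in double mutants they were both readings of Marcksl1 and that of replicate 2 for Myl9, Bex1 and Hacd4. For 6 of the 7 genes, then, the level without stabilised β-catenin is known only as no higher than background, and folds against it are given as bounds. Among the background genes themselves, the atrial myosin light chain Myl7, singled out after its values were seen, read 8.94 and 8.54 in double mutants, 9.66 and 10.09 in bCATca cells, 8.37 and 7.28 in IKKa-AA and 6.29 and 6.18 in WT. Without Myl7 the counts of readings above background were 5, 14, 2 and 2 in the same order of groups.

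**Figure D1:**
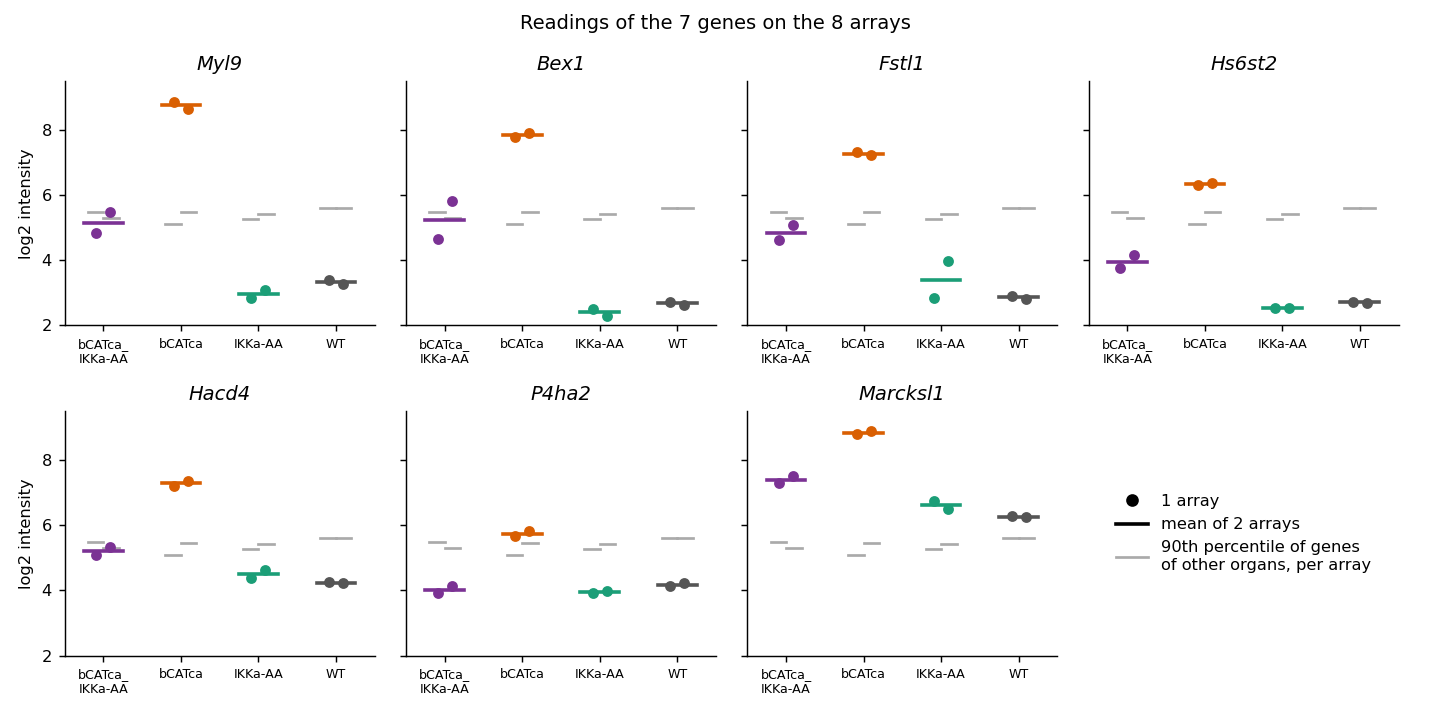
Log2 intensity (vertical axis) of the 7 genes on the 8 arrays, by group. Points are single arrays, coloured bars the mean of 2 arrays, and grey ticks the 90th percentile of the genes of other organs on each array. All 14 bCATca readings lie above the grey ticks, and in WT only the 2 readings of Marcksl1 do.

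Myl9 read 4.84 and 5.47 in double mutants, 8.86 and 8.64 in bCATca cells, 2.83 and 3.10 in IKKa-AA and 3.39 and 3.26 in WT. The bCATca arrays stood at least 3.17 above every other array, the double mutants lay between them and the rest, and no groups overlapped. The mean in bCATca was 5.42 above WT (SE 0.22), the third largest increase of all genes, or at least 8.85-fold when WT is set to its background level. In double mutants it was 3.60 below bCATca (SE 0.22), the fifth largest decrease of all genes and an at least 9.64-fold lower level, as 1 of 2 double mutant arrays was at background. In a bulk sample, fewer cells that express a gene and less RNA per cell cannot be told apart, here and for every gene below.

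Marcksl1, the other gene of the cell cortex, was the only one above background on all 8 arrays. It read 7.29 and 7.50 in double mutants, 8.79 and 8.88 in bCATca cells, 6.73 and 6.51 in IKKa-AA and 6.28 and 6.24 in WT. The groups did not overlap, and their order from high to low was bCATca, double mutants, IKKa-AA and WT. Its level was 5.96-fold higher in bCATca than in WT (difference 2.57, SE 0.15) and 2.71-fold lower in double mutants than in bCATca (difference -1.44, SE 0.15). Since both ends of each comparison were measured above background, these are the only folds from WT among the 7 genes that are not bounds.

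The secreted protein gene Fstl1 read 4.61 and 5.09 in double mutants, 7.33 and 7.22 in bCATca cells, 2.83 and 3.97 in IKKa-AA and 2.90 and 2.82 in WT. The bCATca arrays were apart from all others by 2.13, the double mutants were apart from IKKa-AA by 0.64, and IKKa-AA and WT overlapped, with the IKKa-AA arrays 1.14 apart from each other. Its bCATca level was at least 3.19-fold above WT (difference 4.42, SE 0.33), and its double mutant level was at least 3.69-fold below bCATca (difference -2.43, SE 0.33). Outside bCATca no Fstl1 reading exceeded background.

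The heparan sulphate sulphotransferase gene Hs6st2 read 3.75 and 4.15 in double mutants, 6.32 and 6.36 in bCATca cells, 2.52 and 2.53 in IKKa-AA and 2.71 and 2.70 in WT. Replicates agreed within 0.04 in bCATca, IKKa-AA and WT and were 0.40 apart in double mutants, and no groups overlapped. Only the bCATca readings exceeded background, which bounds the bCATca level at no less than 1.67-fold above WT (difference 3.64, SE 0.16) and the double mutant level at no less than 1.93-fold below bCATca (difference -2.39, SE 0.16).

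P4ha2, the collagen prolyl hydroxylase gene, read 3.92 and 4.13 in double mutants, 5.66 and 5.83 in bCATca cells, 3.91 and 3.97 in IKKa-AA and 4.12 and 4.22 in WT. It was the only one of the 7 genes whose double mutant arrays overlapped those of IKKa-AA and WT. Its difference was 1.58 between bCATca and WT (SE 0.14), the smallest of the 7, and -1.72 between double mutants and bCATca (SE 0.14). Against background these amount to at least 1.10-fold and at least 1.28-fold, because its bCATca readings stood only just above the background level.

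Hacd4, of the fatty acid elongation cycle, read 5.08 and 5.34 in double mutants, 7.22 and 7.37 in bCATca cells, 4.38 and 4.62 in IKKa-AA and 4.26 and 4.22 in WT. The 4 groups did not overlap, although IKKa-AA and WT were separated by only 0.13. The bCATca level was at least 3.23-fold above WT (difference 3.06, SE 0.16), and the double mutant level was at least 3.69-fold below bCATca (difference -2.09, SE 0.16), as 1 of 2 double mutant arrays was at background.

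The adaptor gene Bex1 read 4.66 and 5.81 in double mutants, 7.77 and 7.91 in bCATca cells, 2.50 and 2.30 in IKKa-AA and 2.73 and 2.62 in WT. The double mutant arrays were 1.15 apart, the widest replicate gap of the 7 genes, and still lay 1.96 below the lower bCATca array and 1.93 above the highest array of the remaining groups. Its bCATca level was at least 4.71-fold above WT (difference 5.17, SE 0.31, the fourth largest increase of all genes), and its double mutant level was at least 4.57-fold below bCATca (difference -2.60, SE 0.31), as 1 of 2 double mutant arrays was at background.

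Set against the whole table, the 7 genes had a median difference of 3.64 between bCATca and WT (all genes 0.01) and of -2.39 between double mutants and bCATca (all genes 0.00). All 7 passed the threshold of adjusted p under 0.05 in each of these comparisons, where 9.29% and 1.21% of the 12393 genes did (5.74% higher and 3.55% lower in bCATca, and 0.403% higher and 0.807% lower in double mutants). Nothing is read from these counts, as the genes were chosen on the same contrasts, and no cut-off is stated for that choice. By size of increase in bCATca they ranked 3, 4, 5, 11, 24, 43 and 146 (Myl9, Bex1, Fstl1, Hs6st2, Hacd4, Marcksl1 and P4ha2), and by size of decrease in double mutants against bCATca 5, 18, 25, 27, 40, 95 and 61 in the same order of genes. Unlisted genes stood among them: Ifitm1 and Sox17 ranked 1 and 2 in the increase, at 6.59 and 6.58, and Anxa10 ranked 6 at 4.10. Both bCATca arrays exceeded the other 6 arrays for each of the 7 genes, as they did for 12.6% of all genes. With 2 arrays per group, groups without overlap are common: both bCATca arrays exceeded both WT arrays for 33.5% of all genes, and both double mutant arrays lay below both bCATca arrays for 24.2%.

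Between double mutants and WT the differences were for 6 of the 7 genes between readings at or close to background. The double mutant mean differed from the WT mean by 2.56 for Bex1 (SE 0.31), 1.99 for Fstl1 (SE 0.33), 1.83 for Myl9 (SE 0.22), 1.25 for Hs6st2 (SE 0.16), 1.13 for Marcksl1 (SE 0.15), 0.97 for Hacd4 (SE 0.16) and -0.14 for P4ha2 (SE 0.14). Of these, only Marcksl1 was above background in both groups, with a 2.20-fold higher level in double mutants. Both double mutant arrays exceeded both WT arrays for 6 of the 7, as they did for 28.2% of all genes, and 6 of 7 passed the threshold, where 1.44% of all genes did (0.984% higher, 0.46% lower), on a contrast that is the sum of those used for the choice. With every reading below background raised to the background level, the differences from WT were -0.12 for Myl9, -0.21 for Fstl1, -0.21 for Hs6st2 and -0.19 for Hacd4, since the background level itself was higher on the WT arrays. The interaction, which is the difference between double mutants and IKKa-AA minus that between bCATca and WT, was negative for all 7 genes, from -3.23 for Myl9 (SE 0.31) to -1.50 for P4ha2 (SE 0.20). It holds the contrasts used to choose the genes and is given without a test. Over all genes the interaction passed for 0.0888%.

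The replicates of the double mutants did not sit alike on these genes. Replicate 2 read higher than replicate 1 for 7 of 7, by 0.20 to 1.15 with a median of 0.40, where the median over all genes was -0.05. In bCATca and WT the gaps were between -0.23 and 0.17. In IKKa-AA they reached 1.14, for Fstl1.

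**Figure D2:**
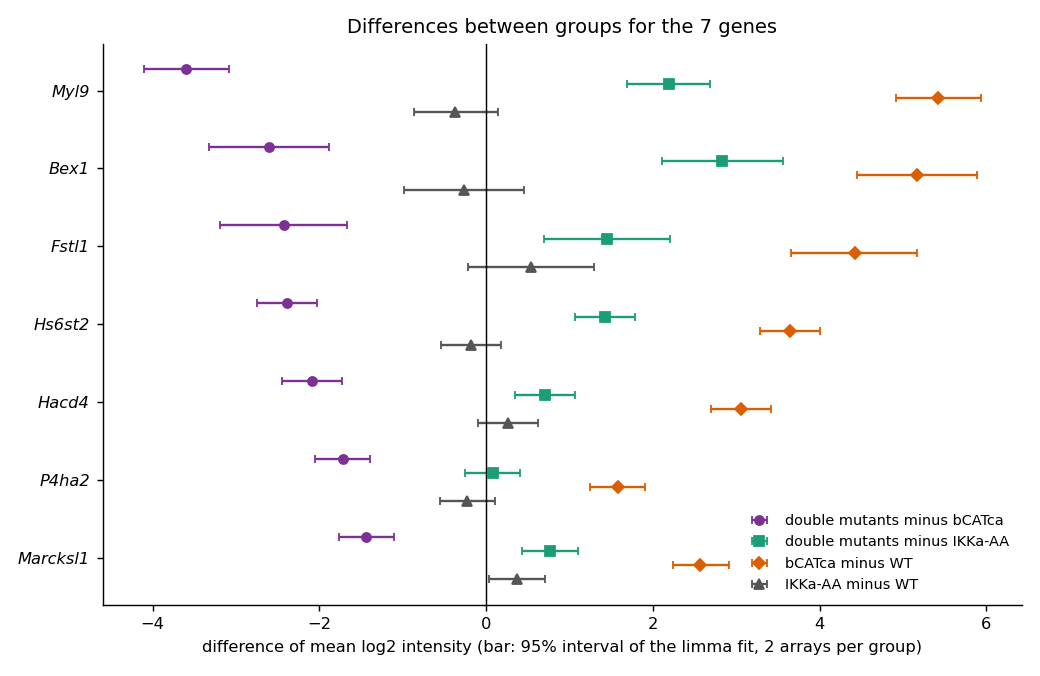
Differences of mean log2 intensity (horizontal axis) for the 7 genes in 4 comparisons, each between 2 groups of 2 arrays. Bars are 95% intervals of the limma fit. The differences of double mutants from bCATca run from -3.60 for Myl9 to -1.44 for Marcksl1, and those of IKKa-AA from WT run from -0.37 to 0.54.

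The rule of choice names a rise with stabilised β-catenin without a reference group, and was taken not to have used the IKKa-AA arrays. On that assumption the comparisons with IKKa-AA were tested, although each also takes in WT or double mutant arrays that the choice did use. The first asks whether the AA allele moves the genes when β-catenin is not stabilised. IKKa-AA differed from WT by 0.54 for Fstl1, 0.37 for Marcksl1, 0.26 for Hacd4, -0.18 for Hs6st2, -0.23 for P4ha2, -0.27 for Bex1 and -0.37 for Myl9. None of the 7 passed in the limma fit, with adjusted p between 0.391 and 0.737, and 1 of 7, Marcksl1, had an unadjusted p under 0.05. Over all genes 1 of 12393 passed (0.00807%), and 1449 had an unadjusted p under 0.05. For Marcksl1, the one gene measured above background in both groups, the difference of 0.37 was a 1.29-fold higher level in IKKa-AA with a 95% interval of 0.03 to 0.70. For the other 6 genes both groups were at background, so that no fold can be given. The arrays of IKKa-AA and WT did not overlap for 6 of the 7 genes, 2 higher and 4 lower in IKKa-AA, with Fstl1 the exception, as was the case for 21.2% (higher) and 24.7% (lower) of all genes.

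The second comparison, of double mutants with IKKa-AA, asks what stabilised β-catenin does to the genes where IKKα cannot be activated. Myl9, Bex1 and Hs6st2 read higher in double mutants and passed, Hs6st2 with no reading above background in either group. That made 3 of 7 listed genes, where 7 of all 12393 genes passed (0.0565%, of which 0.0484% higher and 0.00807% lower). Nothing is read from this count, as the choice rested on a rise with stabilised β-catenin or on the double mutant arrays. The differences were 2.83 for Bex1 (95% interval 2.11 to 3.56), 2.19 for Myl9 (1.69 to 2.69) and 1.42 for Hs6st2 (1.06 to 1.78), each with adjusted p = 0.0366 in limma and with both double mutant arrays above both IKKa-AA arrays. The other 4 genes that passed were the interferon-inducible genes Ifit2, Ifitm1 and Ifi27l2a, which rose by 3.46, 3.45 and 2.50, and Isl1, a homeobox gene of enteroendocrine cells that was at background on all arrays, which fell by 1.36.

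Fstl1, Marcksl1, Hacd4 and P4ha2 did not pass in that comparison. Fstl1 differed by 1.45 (adjusted p = 0.391), Marcksl1 by 0.77 (adjusted p = 0.298, a 1.70-fold difference with both groups above background, interval 0.43 to 1.10), Hacd4 by 0.71 (adjusted p = 0.356) and P4ha2 by 0.08 (adjusted p = 0.937, interval -0.25 to 0.41). Double mutant arrays lay above IKKa-AA arrays for the first 3 of these, as for 19.9% of all genes, and overlapped them for P4ha2. In limma 6 of 7 genes had an unadjusted p under 0.05, against 859 of all genes, and nothing is read from that count either.

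The 3 calls stood close to the threshold and to background. Myl9 and Bex1 exceeded background on 1 of 2 double mutant arrays and Hs6st2 on none, and none of the 3 did in IKKa-AA, so that no fold bound above 1 could be given. With readings raised to the background level the differences were 0.13 for Myl9, 0.30 for Bex1 and 0.04 for Hs6st2, and none passed (adjusted p = 0.926 each in limma). Leaving out either WT array or either bCATca array, which changes the shared estimate of spread and not the difference, left 0 of the 3 calls. Leaving out double mutant replicate 2 left 1 call, Bex1, and leaving out double mutant replicate 1 left 2, Myl9 and Bex1. Without IKKa-AA replicate 2, Myl9 kept its call, Bex1 and Hs6st2 lost theirs (adjusted p = 0.0815 each in limma), and Fstl1 passed (difference 2.02, adjusted p = 0.0352). With the mean of all probe sets for each gene no listed gene passed (adjusted p = 0.0548 for Myl9 and Bex1), and with only the double mutant and IKKa-AA arrays in the fit none did (adjusted p = 0.305).

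Every probe set of Fstl1, Hs6st2 and Marcksl1 had its highest mean in bCATca and its next highest in double mutants, but the probe sets of a gene differed in level. The second probe set of Fstl1 read 3.95 and 4.85 in double mutants, 7.28 and 7.11 in bCATca cells, 3.08 and 3.78 in IKKa-AA and 2.96 and 3.20 in WT, close to the first, and IKKa-AA replicate 2 was again the higher of its pair. For Hs6st2 only 1 of 3 probe sets responded above background. The second read 2.72 and 2.61 in double mutants, 3.21 and 3.26 in bCATca cells, 2.34 and 2.61 in IKKa-AA and 2.21 and 2.70 in WT, and the third stayed between 2.32 and 2.59 on every array. Averaging all 3 probe sets of Hs6st2 reduced its difference between bCATca and WT to 1.54 and that between double mutants and bCATca to -1.02. Whether the 3 read the same transcripts was not tested.

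Marcksl1 had a bright and a dim pair of probe sets. The second bright one read 7.18 and 7.36 in double mutants, 8.63 and 8.84 in bCATca cells, 6.54 and 6.41 in IKKa-AA and 5.75 and 5.67 in WT, and its IKKa-AA arrays stood 0.66 above WT (difference 0.77, SE 0.15, adjusted p = 0.219 in the limma fit of all probe sets). The 2 dim ones were above background in bCATca alone and differed by 0.96 and 0.99 between bCATca and WT and by -0.61 and -0.62 between double mutants and bCATca. All 3 other than the one used for the gene are of a type whose probes can match more than 1 transcript, as is that one, so that signal from related transcripts cannot be told apart. In a fit of all 22690 probe sets, 3 of the 13 passed between double mutants and IKKa-AA (0.0529% of all) and 0 of 13 between IKKa-AA and WT (0.0309% of all).

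**Figure D3:**
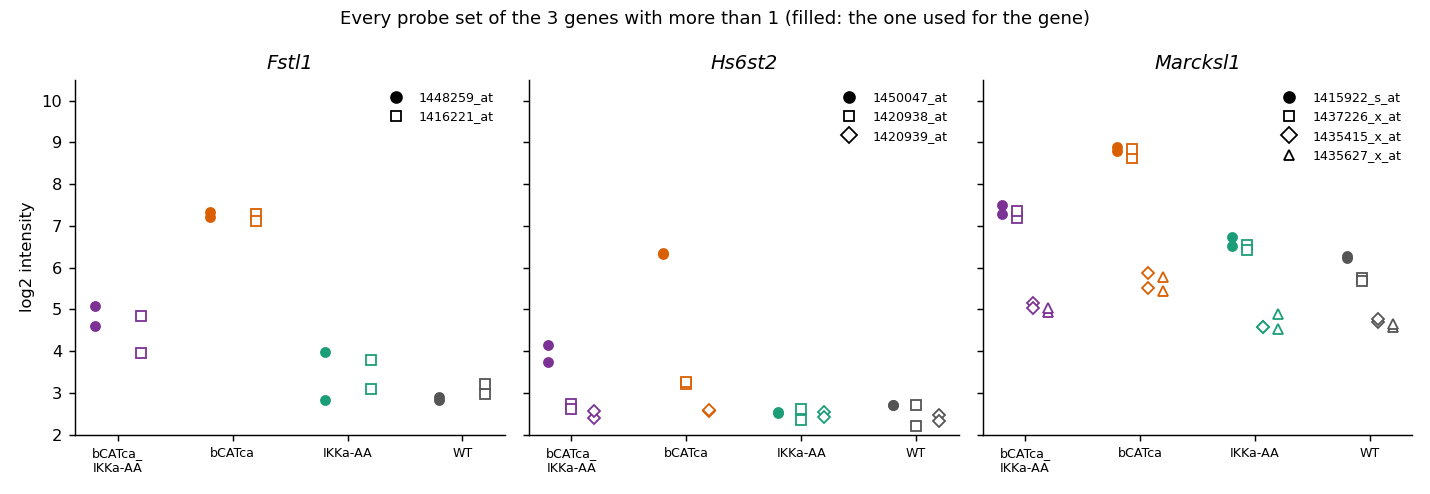
Log2 intensity (vertical axis) of each probe set of Fstl1, Hs6st2 and Marcksl1 by group, 1 point per array. Filled circles are the probe set used for the gene. The other 2 probe sets of Hs6st2 stay between 2.21 and 3.26 in all groups while the one used reaches 6.36 in bCATca.

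Of 12 close relatives of the genes that were read, Bex3 was the one that passed. The myosin light chain genes Myl12a and Myl12b, the sulphotransferase gene Hs6st1, the dehydratase genes Hacd1, Hacd2 and Hacd3, the hydroxylase gene P4ha1, Marcks, Bex2, Bex4 and Fstl3 passed in none of the 5 comparisons between groups in limma. Of these, Bex2, Bex4, P4ha1 and Fstl3 were at background on all 8 arrays. Hacd1 read 9.40 and 9.34 in double mutants, 9.74 and 10.02 in bCATca cells, 9.61 and 9.38 in IKKa-AA and 9.45 and 9.35 in WT. Its bCATca arrays were the highest, by 0.48 on average over WT (adjusted p = 0.0832 in limma), and the difference of double mutants from bCATca was -0.51 (adjusted p = 0.172). Bex3, a neighbour of Bex1 in its family, read 8.03 and 7.88 in double mutants, 8.74 and 8.86 in bCATca cells, 7.94 and 7.81 in IKKa-AA and 7.90 and 7.70 in WT. Its bCATca arrays exceeded all others. It rose by 1.00 in bCATca against WT (adjusted p = 0.00663) and fell by 0.85 in double mutants against bCATca (adjusted p = 0.0382). Differences between a listed gene and its relatives were not themselves tested.

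**Figure D4:**
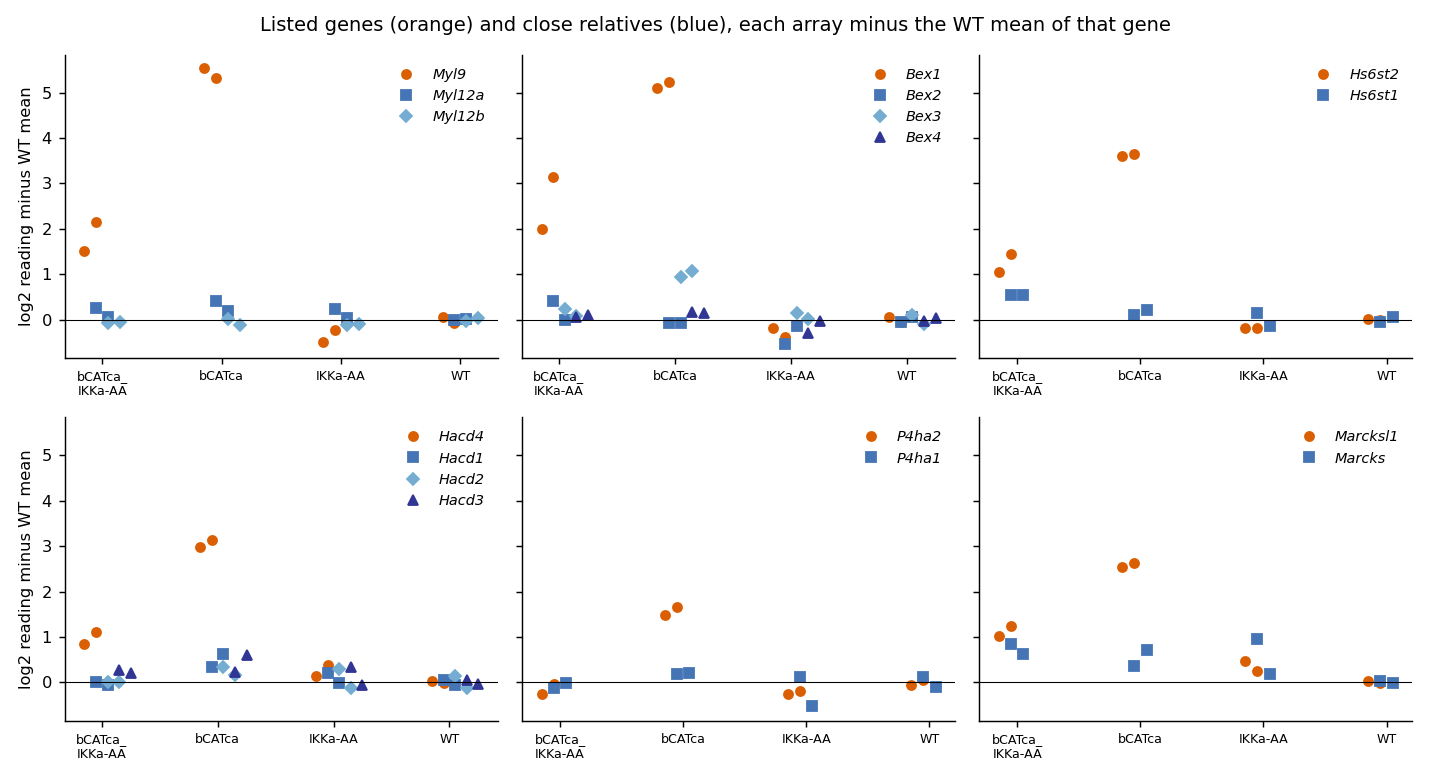
Log2 reading minus the WT mean of the same gene (vertical axis) for 6 listed genes, in orange, and their relatives, in blue, by group, 1 point per array. In bCATca the means of the orange points run from 1.58 for P4ha2 to 5.42 for Myl9, and Bex3, at 1.00, is the relative farthest from its WT level there.

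Genes of the pathways around each member were counted from lists that had been drawn up with earlier results of these data known. Of all genes, 5.74% rose and 3.55% fell in bCATca against WT, and 0.403% rose and 0.807% fell in double mutants against bCATca. Of 24 measured Wnt target genes, 14 rose and 0 fell in bCATca against WT (median difference 1.43, all genes 0.01), and 4 fell and 0 rose in double mutants against bCATca (median -0.71, all genes 0.00). Notum, a secreted enzyme that inactivates Wnt ligands, read 5.64 and 6.62 in double mutants, 8.33 and 8.0 in bCATca cells, 4.92 and 4.88 in IKKa-AA and 4.85 and 5.01 in WT. Like the listed genes other than P4ha2, it was highest in bCATca with double mutants next. It rose by 3.24 in bCATca against WT (adjusted p = 0.000862 in limma) and fell by 2.04 in double mutants against bCATca (adjusted p = 0.0207). Apcdd1, a membrane inhibitor of Wnt signalling, fell by 1.25 in double mutants against bCATca (adjusted p = 0.0456), with a reading above background on 1 of 8 arrays. Tnfrsf19, a receptor gene of the crypt base, rose by 3.15 in bCATca (adjusted p = 0.00436) and differed by -1.81 in double mutants against bCATca (adjusted p = 0.0843). Nkd1 and Wif1 were the other two that fell there, Wif1 with readings at background on every array. In double mutants against WT, 4 of the 24 rose and 0 fell: Axin2 by 1.24, Cd44 by 1.37, Fzd7 by 1.05 and Nkd1 by 0.88, of which Axin2, Cd44 and Fzd7, like Wif1, are named after their values were seen. Axin2, the feedback inhibitor used as a readout of β-catenin activity, had risen by 2.02 in bCATca against WT (adjusted p = 0.000664). None of the 24 passed in double mutants against IKKa-AA or in IKKa-AA against WT in limma.

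Around Hs6st2, 6 of 22 genes of heparan sulphate synthesis and its core proteins rose in bCATca against WT and 0 fell (median 0.22), where 5.74% of all genes rose and 3.55% fell. They included the glypican genes Gpc3 and Gpc1, by 3.02 and 0.64 (adjusted p = 0.0148 and 0.0474), the syndecan gene Sdc1 by 1.10 (adjusted p = 0.00338) and the 3-O-sulphotransferase gene Hs3st1 by 1.71 (adjusted p = 0.0114). None of the 22 passed in double mutants against bCATca (median -0.07), where 1.21% of all genes did. Gpc3 differed there by -1.81 (adjusted p = 0.166), with readings of 5.97 and 6.45 in double mutants against 7.26 and 8.79, wide apart, in bCATca. Gpc1 was at background on all 8 arrays.

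Around P4ha2, 2 of 13 genes of collagen hydroxylation rose in bCATca against WT and 0 fell (median 0.02), where 5.74% of all genes rose. These were P3h4 and Crtap, which encode partner proteins of collagen-modifying hydroxylases, and the differences were 1.14 and 1.09 (adjusted p = 0.00499 and 0.0151). P3h4 was the 1 of 13 that fell in double mutants against bCATca, where 0.807% of all genes fell, by 1.08 (adjusted p = 0.0218), to 4.22 and 4.14 in double mutants against 5.34 and 5.18 in bCATca, while Crtap differed by -0.81 (adjusted p = 0.0965).

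Among 8 other measured genes of the BEX and TCEAL families and their partner Ngfr, Bex3 and Tceal9 rose in bCATca against WT, and Bex3 alone fell in double mutants. Tceal9 rose by 1.15 (adjusted p = 0.00671) and differed by -0.83 in double mutants against bCATca (adjusted p = 0.0614). Of 14 genes of fatty acid elongation around Hacd4, Elovl5 and Acsl4 rose in bCATca, by 1.00 and 1.39 (adjusted p = 0.027 and 0.0342), and none passed in double mutants against bCATca, where 5.74% of all genes rose in the first comparison and 1.21% passed in the second. None of 10 genes of regulatory myosin light chains and their kinases around Myl9, and none of 11 genes of the SPARC and follistatin families around Fstl1, passed in any of these comparisons. Of 14 genes that link actin to membranes, around Marcksl1, the capping protein gene Capg rose by 2.66 in bCATca against WT (adjusted p = 0.00221 in limma). Ezr and Enah, the second at background on all arrays, fell there by 0.67 each (adjusted p = 0.0471 and 0.0312). The kinase gene Prkca rose by 0.78 in double mutants against bCATca (adjusted p = 0.0453). The shares over all genes were 5.74% higher and 3.55% lower in bCATca against WT. In double mutants against bCATca they were 0.403% higher and 0.807% lower.

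Myl9, Fstl1 and P4ha2 are also genes of smooth muscle and stroma, so markers of those cells were read on the same arrays. Of 18 smooth muscle and actomyosin genes, 8 were at or below background on all 8 arrays, among them the muscle markers Myh11 (2.99 to 3.65), Cnn1 (2.88 to 3.33) and Tagln (4.12 to 4.93). Other muscle markers exceeded background: Des on 7 of 8 arrays (5.11 to 6.15), Acta2 on 4 (5.03 to 5.99) and Tpm2 on 8 (5.37 to 6.64). The summed intensity of all 18 genes was 3538 to 3732 in double mutants and 3784 to 3832 in bCATca. It was 3684 to 3745 in IKKa-AA and 3337 to 3780 in WT. In bCATca, Tpm1, Mylk, Actn1, Vcl and Zyx averaged 10.38, 9.46, 9.14, 8.57 and 8.41 in log2. Acta2, Des and Tpm2 averaged 5.64, 5.29 and 5.89 there. The sum was thus carried mostly by the brighter genes and does not measure muscle content. In bCATca against WT, Csrp1 and Actn1, which are expressed beyond muscle, rose by 1.12 and 1.24, and the muscle genes Des and Tagln fell by 0.73 and 0.66. Of all genes, 5.74% rose and 3.55% fell in that comparison. None of the 18 passed in double mutants against bCATca, where 1.21% of all genes did.

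**Figure D5:**
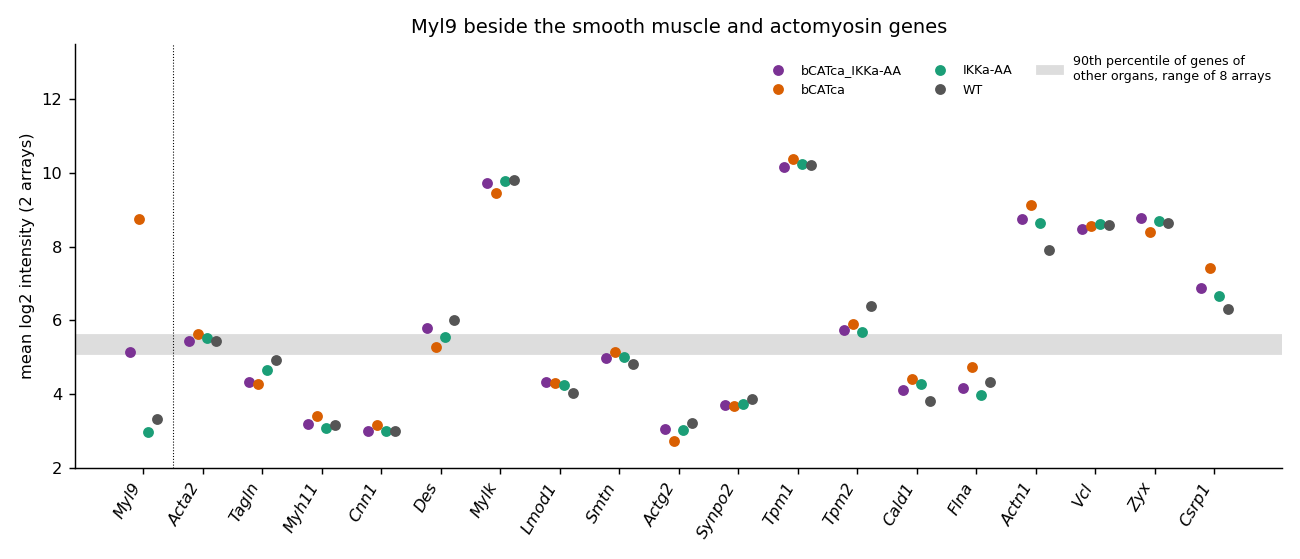
Mean log2 intensity of 2 arrays (vertical axis) for Myl9 and 18 smooth muscle and actomyosin genes, by group. The grey band spans the 90th percentile of the genes of other organs over the 8 arrays, 5.10 to 5.61. Myl9 at 8.75 in bCATca stands far above the band. Myh11, Cnn1 and Tagln lie below it in every group, and Tpm2 lies above it in every group.

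Of 18 fibroblast and matrix genes, 14 were at or below background on all 8 arrays, collagen genes Col1a1, Col1a2 and Col3a1 included, and their summed intensity was 1068 to 1256 in double mutants, 1173 to 1513 in bCATca, 1004 to 2027 in IKKa-AA and 2327 to 2577 in WT. The sum was carried mostly by Fbln1, a matrix protein gene singled out after its values were seen, with 669 to 856 in double mutants, 689 to 976 in bCATca, 584 to 1618 in IKKa-AA and 1941 to 2041 in WT. The sum of the other 17 was 400 to 400 in double mutants, 485 to 536 in bCATca, 409 to 420 in IKKa-AA and 386 to 535 in WT. Vim, an intermediate filament gene of mesenchymal cells, was the 1 of the 18 that rose in bCATca against WT, where 5.74% of all genes rose. It rose by 1.20 (adjusted p = 0.0365 in limma) and differed by -1.49 in double mutants against bCATca (adjusted p = 0.0514 in limma). Vim averaged 6.27 in double mutants, 7.76 in bCATca, 6.76 in IKKa-AA and 6.56 in WT. The part of stromal cells in the readings of the listed genes was not tested. Markers of enteric neurons and glia, where Bex1 could also be read, passed in 0 of 10 cases. Over all genes 9.29% passed in bCATca against WT and 1.21% in double mutants against bCATca. Of the 10, 9 were at or below background on all arrays, and Gfap, among these 9, was itself in the list that set the background level. Their summed intensity was 171 to 182 in double mutants, 153 to 165 in bCATca, 152 to 173 in IKKa-AA and 181 to 188 in WT.

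Endothelial markers were at or below background on all arrays for 8 of 10 genes, and 1 passed, Vwf, one of those 8, higher in bCATca than in WT. Of all genes, 5.74% rose and 3.55% fell in that comparison. Of 12 enteroendocrine genes, Chga rose and Isl1, Cck and Gip fell in it. None of the 12 passed in double mutants against bCATca, where 1.21% of all genes did. The summed intensity of the 12 was 2359 to 2967 in double mutants, 2264 to 2771 in bCATca, 2499 to 4000 in IKKa-AA and 3487 to 3979 in WT. None of 8 tuft cell genes passed in these comparisons.

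Leukocyte markers had a summed intensity over 13 genes of 534 to 596 in double mutants, 1387 to 1596 in bCATca, 810 to 2281 in IKKa-AA and 2046 to 2579 in WT. The sums were lowest in double mutants, while those of IKKa-AA spanned the bCATca range and overlapped WT. Of the 13 genes, the B cell gene Ms4a1 fell in double mutants against bCATca, where 0.807% of all genes fell. In double mutants against WT, where 0.46% of all genes fell, Ptprc, Cd3g and Cd8a fell by 3.36, 4.49 and 4.15. In double mutants against bCATca these 3 differed by -2.24, -3.40 and -2.86 and did not pass (adjusted p = 0.0669, 0.0838 and 0.101 in limma). Ms4a1 was among 5 of the 13 that were at or below background on all arrays. The 4 genes with a larger decrease than Myl9 in that comparison, named after their values were seen, were the immunoglobulin genes Jchain, Igha and Igkv8-30, at -5.98, -5.96 and -4.71, and the T cell chemokine gene Ccl5, at -4.14. The part of leukocyte content in the difference between double mutants and bCATca was not tested.

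The epithelial label held on every array: Epcam read 12.48 to 12.65 and Krt8 13.06 to 13.25, and the summed intensity of 12 epithelial genes was 43786 to 44748 in double mutants, 43087 to 44186 in bCATca, 40955 to 45661 in IKKa-AA and 40283 to 42683 in WT. Krt18 was the 1 of the 12 that rose in bCATca against WT, where 5.74% of all genes rose. It rose by 1.17 (adjusted p = 0.00304 in limma) and differed by -0.73 in double mutants against bCATca (adjusted p = 0.0534 in limma). Ctnnb1, which encodes β-catenin, read 11.96 to 12.37, and since stabilisation acts on the protein this checks no label. The IKKα gene itself is not analysed here. WT replicate 1 read high for Xist (9.18) and low for the Y-linked gene Eif2s3y (2.02), opposite to the other 7 arrays.

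Over the 8 arrays the 7 genes followed each other closely. Pearson's r between pairs lay between 0.853 and 0.999 with a median of 0.975 over 21 pairs, which describes the rule by which they were chosen, and the 8 points share the 4 groups. Among 236 genes whose group means spanned at least 2 log2 units, those most like the mean of the 7 were Pls3 (r = 0.998), Htra1 (0.995), Tgif2 (0.995), Notum (0.991), Cited1 (0.990), Msx1 (0.989), Sox17 (0.989) and Nkd1 (0.987). Pls3, which encodes an actin-bundling plastin, read 5.57 and 6.09 in double mutants, 7.69 and 7.62 in bCATca cells, 4.90 and 4.92 in IKKa-AA and 4.86 and 4.84 in WT. It shared with the 7 the order of bCATca and double mutants and the higher reading of double mutant replicate 2.

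By single genes, Pls3 was the most like Myl9 (r = 0.996), Hs6st2 (0.997) and Hacd4 (0.993), and Tgif2 the most like Fstl1 and Marcksl1. Bex1 was closest to Ifitm1 (0.997), an interferon-inducible membrane protein gene, which read 7.22 and 8.36 in double mutants, 10.80 and 11.06 in bCATca cells, 4.69 and 3.99 in IKKa-AA and 4.58 and 4.11 in WT. P4ha2 had the loosest match, with Phldb2 (0.966) and Slc38a4 (0.959). Nkd1, a cytoplasmic Wnt inhibitor, read 4.36 and 4.18 in double mutants, 6.47 and 6.41 in bCATca cells, 3.38 and 3.37 in IKKa-AA and 3.23 and 3.56 in WT, and so was above background in bCATca alone, as Fstl1, Hs6st2 and P4ha2 were.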

How the data were processed

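The authors deposited 1 value per probe set and array, read here as a linear intensity from the values alone, since RMA normally gives log2 and no source used here states the scale. The tools were RMA and affy per the submitters' processing notes (versions: not given in the sources used here). Background correction and quantile scaling are steps of RMA, so that readings near background are compressed and a difference from them is set in part by that step. The deposited intensities were positive, with medians of 50.9 to 53.8 on the 8 arrays, and log2 was taken of each before any step. Arrays carry no read depth, and their number limits the precision.

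Of 22690 probe sets, 20380 had 1 gene symbol in the platform annotation, 691 several, 1555 none and 64 were controls. Current symbols came from Entrez IDs in 20351 cases and from an accession in 1, with 28 left as annotated. Each of the 12393 genes was read by its brightest probe set, by mean of all arrays. limma 3.58.1 under R 4.3.3 fitted group means to the 8 arrays together (lmFit and eBayes, 4 residual and 4.28 prior degrees of freedom), and p-values were adjusted by Benjamini-Hochberg over all genes, with 0.05 as the threshold. The fit was tested on simulated data. Tables and figures were made with Python 3.11.15, pandas 2.3.3, numpy 2.4.6 and matplotlib 3.10.9.

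The 7 genes and all lists were chosen with earlier results of these data known. Apart from the 7 genes, up to 4 called members of each list were named, taken by the size of the difference between double mutants and bCATca, or the member with the smallest p where none was called, together with close relatives of the 7 and the 8 genes most like their mean (2 for each single gene). Genes outside this rule were the 4 called beside the listed genes between double mutants and IKKa-AA, Myl7, Anxa10, Fbln1, Jchain, Igha, Igkv8-30, Ccl5, some Wnt targets and single markers, named after their values were seen. Motifs were searched in 32851 RefSeq promoter windows. Alternatives changed the normalization, dim genes, background floor, probe set summary, moderation, groups in the fit, replicate block and single arrays.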

Additional observations from a re-analysis of the deposited data

Results flagged for a closer look

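Nkd1, a cytoplasmic Wnt inhibitor and 1 of the 8 genes most like the listed ones, differed in its response to stabilised β-catenin between mice with and without the IKKα AA allele, by a test of that difference itself. The interaction was -2.14 (SE 0.22, adjusted p = 0.0166 in limma over 12393 genes, 2 arrays per group). Double mutants averaged 4.27 and IKKa-AA 3.38, a difference of 0.90, and bCATca averaged 6.44 and WT 3.40, a difference of 3.04. Readings in double mutants, IKKa-AA and WT were below background, so the 0.90 is a difference between levels that were not measured. Nkd1 was named for following genes that were chosen on these contrasts, so the test is not independent of that choice.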

How the results depend on the processing

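For the 7 genes, the difference of bCATca from WT and that of double mutants from bCATca kept their sign under every alternative run (15 for each gene, 16 for Marcksl1). With readings raised to the background level, double mutants differed from WT by -0.12 for Myl9, -0.21 for Fstl1, -0.21 for Hs6st2 and -0.19 for Hacd4. The 3 listed genes called between double mutants and IKKa-AA became 1 with cyclic loess and 0 with dim genes left out (where only Marcksl1 of the 7 was still tested), with readings at the background floor, with the mean of probe sets, with only the groups compared and with the replicate block. Genes called between bCATca and WT were 1151, and 701 with the replicate block. Between double mutants and bCATca they were 150, and 81 without dim genes, 344 with the floor, 331 with only the groups compared and 72 with the replicate block. Between IKKa-AA and WT they were 1, and 0 without dim genes, 48 with the floor, 4 with trend and robust moderation and 0 with only the groups compared. Between double mutants and IKKa-AA they were 7, and 0 without dim genes, 31 with the floor, 1 with the mean of probe sets, 0 with only the groups compared and 0 with the replicate block. Between double mutants and WT they were 179, and 451 with the floor, 816 with only the groups compared and 71 with the replicate block. For the interaction they were 11, and 17 with quantile normalization, 55 without dim genes, 201 with the floor, 73 with trend and robust moderation and 6 with the replicate block. Apart from the construction of these alternatives, the cause was not tested.

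Leaving out 1 array at a time gave 223 to 1885 genes between bCATca and WT, 11 to 395 between double mutants and bCATca, 0 to 325 between IKKa-AA and WT (listed genes 0 to 0), 0 to 159 between double mutants and IKKa-AA (listed genes 0 to 3), 7 to 661 between double mutants and WT and 0 to 234 for the interaction. The fewest genes came without bCATca replicate 2 (223), double mutant replicate 1 (11) and WT replicate 1 (7) in the comparisons of bCATca with WT, double mutants with bCATca and double mutants with WT, and the most without either IKKa-AA array (1885, 395 and 661). IKKa-AA replicate 2 alone gave the 325, IKKa-AA replicate 1 the 159 and IKKa-AA replicate 2 the 234, when left out. Where 1 array of a group was left, it was assumed to vary like the other groups. Replicate numbers are shared by the labels of all groups, but deviations from group means correlated between -0.448 and 0.15 for same-numbered arrays, so the numbers were not taken to pair the samples. Readings above background numbered 10 in double mutants and 4 in IKKa-AA at the 75th percentile of genes of other organs, and 0 in each of the 4 groups above the highest of them. The leaving out of Myl7 was chosen after seeing the data and moved no count at the 90th percentile. Myl7 was itself the highest of these genes in bCATca, in double mutants and in IKKa-AA replicate 1, and no count above the highest is given without it. What limits these results is that 6 of the 7 genes were at background in WT and IKKa-AA, and that each group had 2 arrays. The calls against IKKa-AA also changed with the processing and with the arrays in the fit.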
